A study of Bos taurus with 9 samples.

Results

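This account describes 10 genes of the Hippo signalling pathway in bovine blastocysts, out of 22127 genes in the deposited table of counts. They were chosen by symbol and are the coactivator genes YAP1 (ENSBTAG00000039307) and WWTR1 (ENSBTAG00000007814), the transcription factor genes TEAD1 (ENSBTAG00000032657), TEAD3 (ENSBTAG00000019495) and TEAD4 (ENSBTAG00000019788), the kinase genes LATS1 (ENSBTAG00000015076) and LATS2 (ENSBTAG00000014406), the scaffold gene AMOT (ENSBTAG00000016221), and the target genes CCN1 (ENSBTAG00000009844) and CCN2 (ENSBTAG00000006367). All 10 were present under their symbol and passed the filter on low counts. RNA sequencing was done on 9 pools of 9 to 11 blastocysts collected at day 8, with 3 pools for each of 3 media in which the oocytes had matured within their cumulus cells for 24 hours. Low glucose medium with BHB held 2.75 mM glucose and 1.8 mM BHB. The labels leave this abbreviation unexplained, and it is read here as beta-hydroxybutyrate, a ketone body. Low glucose medium held 2.75 mM glucose and no added BHB, and control medium held 5.5 mM glucose. All 3 also held serum, pyruvate, FSH and estradiol, and after fertilisation in vitro every group was cultured in the same embryo media. The media therefore differed only while the oocyte matured, and the question asked is whether that difference is still seen in the blastocyst's transcripts.

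In the Hippo pathway, the LATS kinases phosphorylate the coactivators YAP1 and TAZ (the product of WWTR1), which keeps them out of the nucleus. Without that phosphorylation the coactivators bind TEAD factors on DNA and switch on genes such as CCN1 and CCN2, which encode secreted matrix proteins. In the mouse embryo, polarity of the outer cells holds angiomotin (the product of AMOT) at the apical membrane, LATS stays inactive, and YAP1 with TEAD4 turns on trophectoderm genes such as CDX2 and GATA3. In inner cells angiomotin activates LATS. This control acts on protein phosphorylation and location, which RNA levels do not measure.

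The libraries held between 55611205 and 75178898 estimated counts. The lowest count of any of the 10 genes in a library was 670, with an exact 95% Poisson interval of 620 to 723, which covers counting error only. Levels are given in CPM, counts scaled by library total and TMM factor to a common depth, and since no transcript lengths were used, levels are compared between libraries and not between genes. The blastocyst markers found in the table (8 of 9, among them KRT8, KRT18, POU5F1, CDX2 and GATA6) summed to 17100 to 20500 CPM with BHB, 16600 to 18900 CPM in low glucose and 13600 to 18700 CPM in control. The remaining marker, SOX2, was not analysed here. KRT8 and KRT18 made up most of these sums, so the other markers weigh little in them. KRT8 averaged 9930 CPM with BHB, 9370 CPM in low glucose and 9020 CPM in control. For KRT18 the means were 6490, 6100 and 5650 CPM in that order. A pool mixes trophectoderm and inner cell mass, so fewer cells of a type and less RNA per cell cannot be told apart. Whether the pools of a medium were cultured separately is not stated, so a p-value reflects only how far these pools spread, which may be technical.

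In edgeR's quasi-likelihood test by medium alone, none of the 10 genes had an adjusted p under 0.05 in any of the 3 comparisons. Over all 16469 tested genes, 2.03% were called in low glucose against control, 1.38% with BHB against control and 0% with BHB against low glucose. Without adjustment, 0 of the 10 had a p under 0.05 in these comparisons, where 7.33%, 7.32% and 1.64% of all tested genes did. DESeq2 called 0 of the 10 as well, and 3.37%, 2.68% and 0.0103% of the genes it adjusted. Limma-voom called 0 of the 10, and 2.10%, 1.60% and 0% of all tested genes. With the replicate number as a block in the edgeR fit, CCN2 passed in each comparison with control. That fit called 1 of the 10 there, beside 2.46% and 1.69% of all tested genes. The CPM values of the groups did not overlap for 0, 0 and 1 of the 10 genes, and for 13.2%, 13.3% and 5.51% of all tested genes. The median log2 fold change of the 10 genes was 0.02 in low glucose, 0.06 with BHB, and 0.05 with BHB against low glucose, beside 0.018, 0.010 and 0.005 over all tested genes. Both comparisons with control share the control libraries. In low glucose, 9 of the 10 genes had a 95% interval of the fold change within 2-fold either way, as did 9 with BHB, and 10 with BHB against low glucose. The exception was CCN2 in each comparison with control, where the interval reached below a 2-fold lower level.

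**Figure D1:**
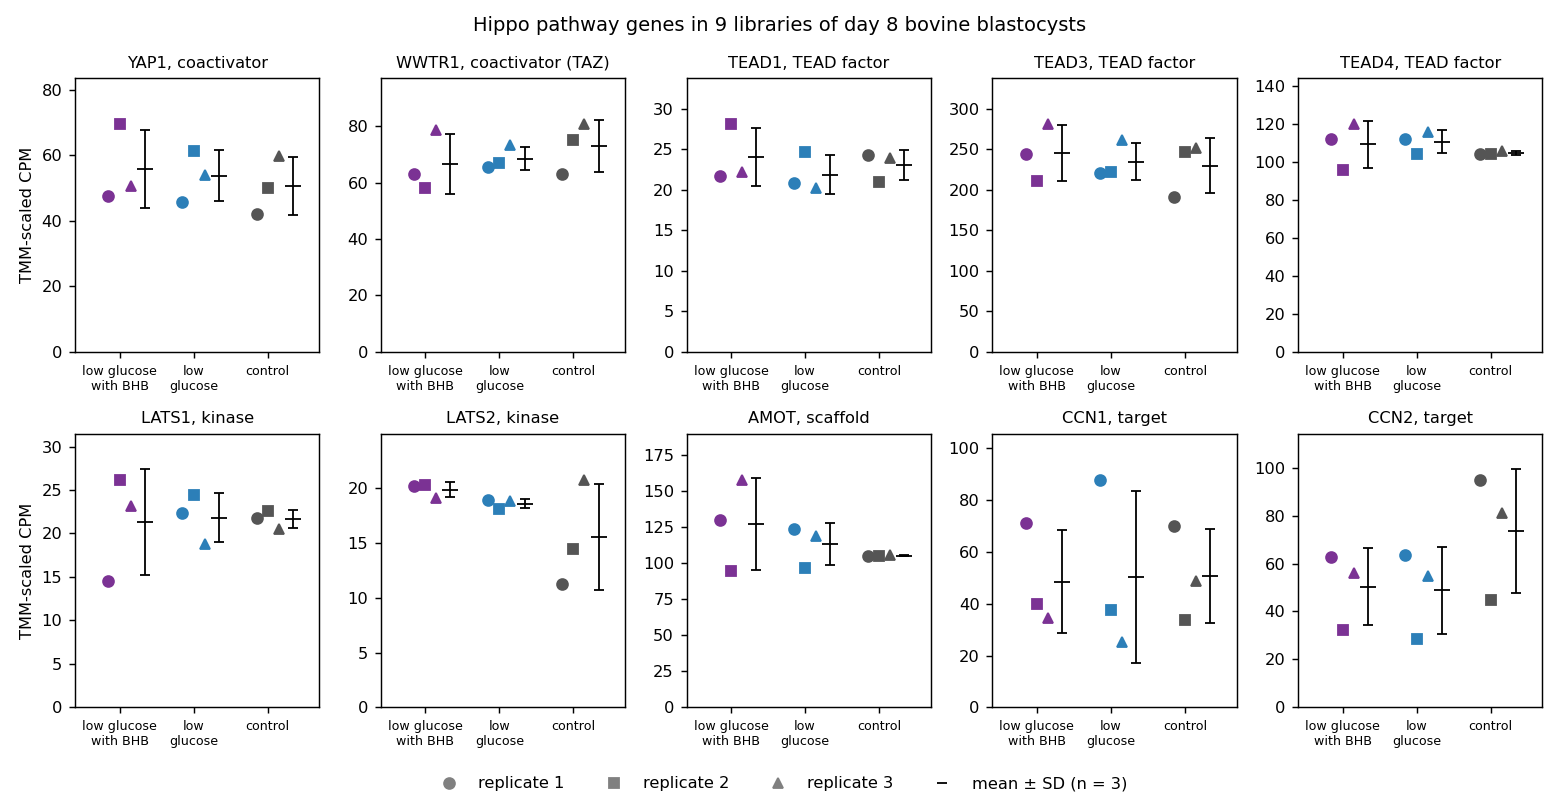
TMM-scaled CPM (y axis, from 0) of each gene in the 9 libraries, by maturation medium (x axis). Symbols mark replicate numbers, and the bar beside each group is its mean ± SD (n = 3). CCN1 and CCN2 vary several-fold between libraries, while TEAD4 stays between 95.8 and 120 CPM.

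The coactivator genes were present in every medium and did not pass the threshold in any comparison. YAP1 stood at 47.5, 69.5 and 50.7 CPM with BHB, at 45.8, 61.3 and 54.1 CPM in low glucose, and at 42.1, 50.1 and 59.8 CPM in control (replicates 1, 2 and 3). The groups overlapped, and replicate 1 was the lowest library of its medium in all 3, as it was for 8.25% of tested genes. YAP1 averaged 55.9 ± 11.9 CPM with BHB, 53.7 ± 7.78 CPM in low glucose and 50.7 ± 8.82 CPM in control (SD, n = 3 each). Its log2 fold change was 0.08 (95% interval -0.30 to 0.47) in low glucose and 0.14 (-0.25 to 0.53) with BHB, both against control.

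WWTR1, whose product TAZ is the paralog of YAP1, leaned the other way within its spread. It stood at 62.9, 58.2 and 78.8 CPM with BHB, at 65.5, 67.0 and 73.2 CPM in low glucose, and at 63.0, 75.1 and 80.8 CPM in control. The groups overlapped, with replicate 3 the highest of each medium. The log2 fold change of WWTR1 was -0.09 (-0.40 to 0.22) in low glucose and -0.13 (-0.44 to 0.17) with BHB. The log2 ratio of YAP1 over WWTR1 within a library, in which differences between libraries do not depend on gene length, was -0.41, 0.26 and -0.64 with BHB, -0.52, -0.13 and -0.44 in low glucose, and -0.58, -0.58 and -0.44 in control. Replicate 2 held the highest ratio in each low glucose medium, and the groups overlapped.

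The TEAD genes encode the DNA-binding partners of the coactivators. TEAD4, needed for trophectoderm in the mouse, was the steadiest of the 10 genes. It stood at 112, 95.8 and 120 CPM with BHB, at 112, 104 and 116 CPM in low glucose, and at 104, 104 and 106 CPM in control. The control libraries lay within 1.03-fold of each other and inside the range of the BHB libraries. The log2 fold change of TEAD4 was 0.08 (-0.17 to 0.32) in low glucose and 0.06 (-0.18 to 0.31) with BHB, the narrowest intervals among the 10 genes.

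TEAD3 stood at 244, 211 and 281 CPM with BHB, at 221, 222 and 261 CPM in low glucose, and at 191, 246 and 252 CPM in control. Its groups overlapped, and replicate 3 was again the highest of each medium. TEAD3 changed by a log2 value of 0.03 (-0.28 to 0.34) in low glucose and 0.09 (-0.22 to 0.41) with BHB, neither past the threshold. TEAD1 stood at 21.7, 28.1 and 22.2 CPM with BHB, at 20.8, 24.6 and 20.2 CPM in low glucose, and at 24.3, 20.9 and 23.9 CPM in control. Replicate 2 was the highest TEAD1 library in each low glucose medium and the lowest in control. The log2 fold change of TEAD1 was -0.07 (-0.41 to 0.26) in low glucose and 0.06 (-0.27 to 0.39) with BHB.

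Of the kinase genes, LATS1 varied mainly among the BHB libraries. It stood at 14.5, 26.2 and 23.2 CPM with BHB, at 22.3, 24.4 and 18.8 CPM in low glucose, and at 21.8, 22.6 and 20.5 CPM in control. The lowest and the highest of the 9 libraries were both from BHB medium, and the log2 fold change of LATS1 was -0.02 (-0.46 to 0.42) with BHB and 0.01 (-0.42 to 0.45) in low glucose, against control.

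LATS2, the other LATS kinase and itself a YAP target in human cells, varied mainly among the control libraries. It stood at 20.2, 20.3 and 19.1 CPM with BHB, at 18.9, 18.1 and 18.8 CPM in low glucose, and at 11.3, 14.5 and 20.8 CPM in control. Control replicates 1 and 2 were the lowest libraries and control replicate 3 the highest of all 9, so control overlapped with both other groups. LATS2 averaged 19.9 ± 0.658 CPM with BHB, 18.6 ± 0.449 CPM in low glucose and 15.5 ± 4.83 CPM in control (SD, n = 3 each). The log2 fold change was 0.36 (SE 0.197, edgeR adjusted p = 0.825) with BHB and 0.26 (SE 0.197, edgeR adjusted p = 0.989) in low glucose. Without control replicate 3 it was 0.64 with BHB (edgeR adjusted p = 0.204) and 0.55 in low glucose (edgeR adjusted p = 0.290), and without control replicate 1 it was 0.17 with BHB and 0.08 in low glucose. Between the low glucose media, LATS2 was the only member of the 10 whose groups did not overlap, by a log2 fold change of 0.09 with BHB, where 5.51% of all tested genes had groups that did not overlap.

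AMOT encodes the scaffold that carries the polarity signal to LATS. It stood at 130, 94.3 and 158 CPM with BHB, at 124, 96.6 and 119 CPM in low glucose, and at 105, 105 and 106 CPM in control. Replicate 2 lay below control in both low glucose media and the other replicates above it. AMOT averaged 128 ± 32.0 CPM with BHB, 113 ± 14.5 CPM in low glucose and 105 ± 0.698 CPM in control (SD, n = 3 each), and the difference in spread was not tested. Its log2 fold change was 0.28 (-0.09 to 0.64, edgeR adjusted p = 0.869) with BHB and 0.10 (-0.26 to 0.47) in low glucose.

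Replicate 2 with BHB was at an extreme for more of these genes than any other library, which was not counted over all tested genes. It was the highest of the 9 libraries for YAP1, TEAD1 and LATS1 and the lowest for WWTR1, TEAD4 and AMOT, an extreme for 6 of the 10 genes, while no other library was at an extreme for more than 4. The same library held the smallest share of mitochondrially encoded transcripts, 2.25% of counts against 3.36% to 7.93% in the other 8, and the part of this in the result was not tested. Without it, the log2 fold change with BHB against control was 0.45 for AMOT, -0.04 for YAP1, -0.20 for LATS1, -0.07 for TEAD1, -0.04 for WWTR1 and 0.15 for TEAD4, and none passed the threshold.

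**Figure D2:**
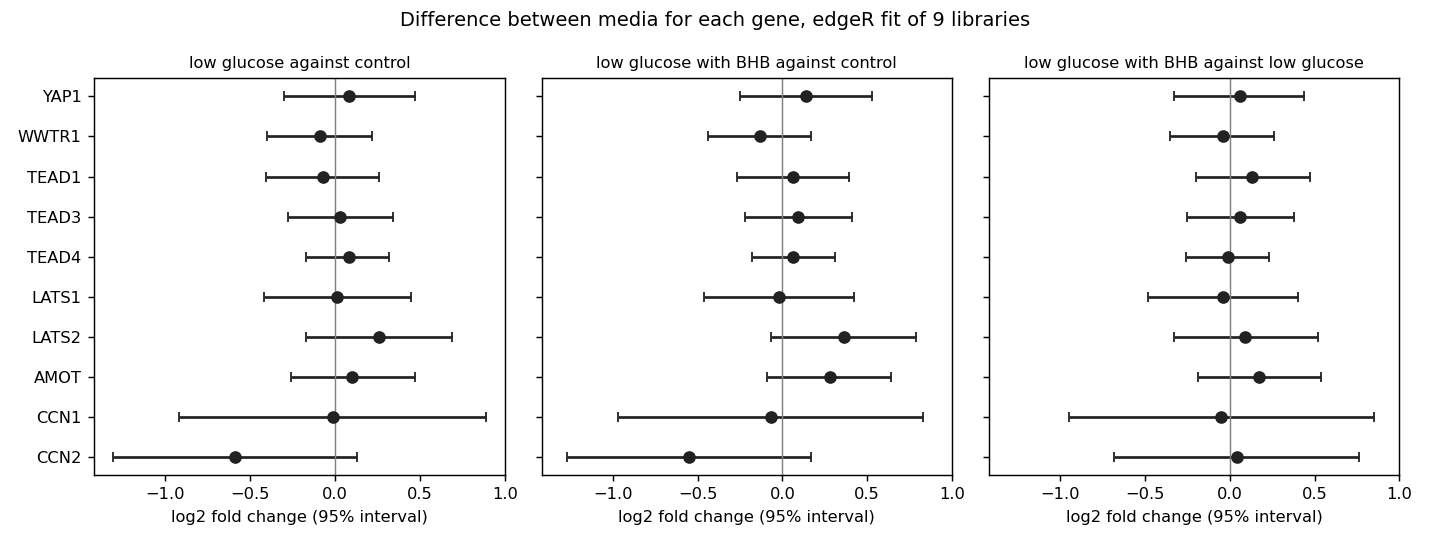
Log2 fold change of each gene (x axis, points) with its 95% interval (bars) in 3 comparisons of media, from the edgeR fit of all 9 libraries. Every interval crosses 0, and those of CCN1 and CCN2 are the widest, such as -1.31 to 0.13 for CCN2 in low glucose.

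CCN2, the target gene first known as CTGF, had lower means in both low glucose media and did not pass without the replicate block. It stood at 62.7, 32.2 and 55.9 CPM with BHB, at 63.4, 28.6 and 54.8 CPM in low glucose, and at 95.0, 44.6 and 80.9 CPM in control. In every medium replicate 1 was the highest, replicate 3 the next and replicate 2 the lowest, and the control group overlapped with the others only through its replicate 2. Each low glucose library, with or without BHB, lay below the control library of its own number, which was not counted over all tested genes. The replicate numbers fell in a single order in all 3 media for 4.96% of tested genes. CCN2 averaged 50.2 ± 16.0 CPM with BHB, 48.9 ± 18.1 CPM in low glucose and 73.5 ± 26.0 CPM in control (SD, n = 3 each). Its log2 fold change was -0.55 (SE 0.330, edgeR adjusted p = 0.864) with BHB and -0.59 (SE 0.331, edgeR adjusted p = 0.894) in low glucose. With both low glucose media together against control it was -0.57 (95% interval -1.18 to 0.04, edgeR adjusted p = 0.632). Without control replicate 1, the log2 fold change of CCN2 was -0.32 with BHB and -0.36 in low glucose.

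CCN1, first known as CYR61, varied with the library and had nearly equal means in the 3 media. It stood at 71.3, 39.8 and 34.5 CPM with BHB, at 88.0, 37.5 and 25.4 CPM in low glucose, and at 70.0, 33.7 and 48.9 CPM in control. Replicate 1 was the highest library of each medium, as it was for 7.64% of tested genes, and held 2.07 times the lowest library with BHB, 3.46 times in low glucose and 2.07 times in control. CCN1 averaged 48.5 ± 19.9 CPM with BHB, 50.3 ± 33.2 CPM in low glucose and 50.9 ± 18.2 CPM in control (SD, n = 3 each). Its log2 fold change was -0.07 (-0.97 to 0.83) with BHB and -0.01 (-0.92 to 0.89) in low glucose, intervals that do not show the levels to be alike.

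The log2 ratio of CCN2 over CCN1 within a library was -0.18, -0.31 and 0.70 with BHB, -0.47, -0.39 and 1.11 in low glucose, and 0.44, 0.40 and 0.73 in control. In replicate 3 the ratio was the highest of each medium, and replicates 1 and 2 of both low glucose media lay below 0, where no control library did. The groups overlapped through replicate 3, and the ratio was not tested.

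**Figure D3:**
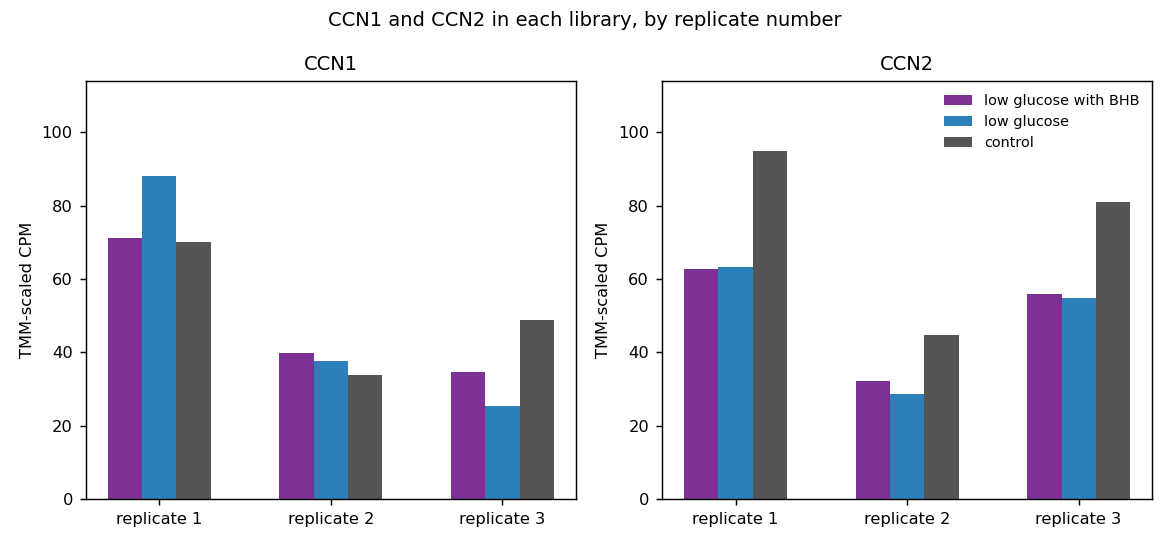
TMM-scaled CPM (y axis, from 0) of CCN1 (left) and CCN2 (right) in each of the 9 libraries, grouped by replicate number (x axis), with a bar for each medium. Replicate 1 is the highest of each medium for both genes, up to 88.0 CPM for CCN1 in low glucose and 95.0 CPM for CCN2 in control.

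The targets stood apart from the signalling genes in their spread. Pooled within media, the SD of log2 CPM was 0.688 for CCN1 and 0.568 for CCN2, against 0.108 to 0.285 for the other 8 genes and a median of 0.291 over all tested genes. Among the 1001 genes nearest in mean level, 98.7% had a smaller SD over the 9 libraries than CCN1 and 98.0% a smaller SD than CCN2. For TEAD4 that share was 11.9%, for TEAD1 23.3%, and for the remaining 6 genes it ran from 54.1% to 84.0%.

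**Figure D4:**
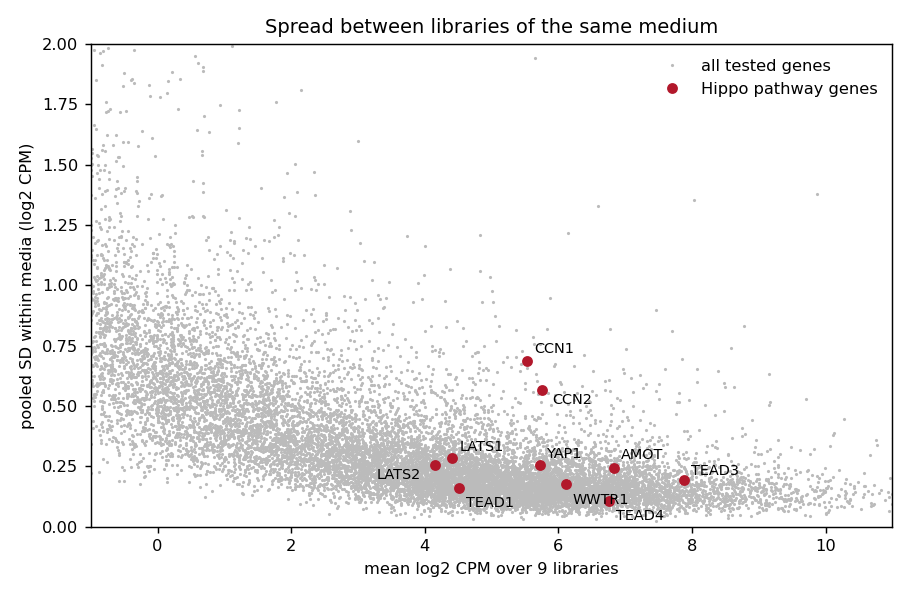
Pooled SD of log2 CPM within media (y axis) against mean log2 CPM over the 9 libraries (x axis) for all tested genes (grey) and the 10 Hippo pathway genes (red). CCN1 and CCN2 lie at 0.688 and 0.568, above the other 8 genes; 2462 genes beyond the axes are not drawn.

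Likeness of pattern was measured as the root mean square difference between centred log2 CPM values over the 9 libraries, as a description, since the genes share the libraries and their scaling. Genes that vary little lie near each other by this measure, whatever their pattern. Among the 10 genes the nearest pair was WWTR1 and TEAD3, at 0.106, followed by TEAD3 and TEAD4 at 0.118. TEAD4 lay only 0.0945 from its own mean, nearer than to TEAD3. The distance from the gene's own mean was 0.223 for AMOT, 0.536 for CCN2 and 0.565 for CCN1. Outside them, 9680 genes with a symbol and a mean of at least 5 CPM were searched. The patterns nearest to CCN1 were those of GLIPR1 (0.166), MYL7 (0.186), a myosin light chain gene, and LOXL2 (0.209), which encodes a collagen-crosslinking enzyme. Nearest to CCN2 were SEPTIN5 (0.216), CDKN1A (0.224), a cell cycle inhibitor gene, and DENND2B (0.246). AMOT lay nearest to FZD4 (0.0925), ETV3 (0.0983) and SPPL3 (0.107), and TEAD4 to STARD7 (0.0339), MAPK7 (0.0355) and DNAJB6 (0.0378).

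Most other genes of the pathway also did not pass. Among 21 upstream kinases and scaffolds, 1 fell with BHB and 0 changed in low glucose, and the median log2 fold change was -0.009 and 0.014. Over all tested genes, 1.38% were lower with BHB and 2.02% were lower in low glucose. The gene that fell was STK38L, a kinase of the NDR family related to LATS, at 2.90, 5.30 and 3.69 CPM with BHB, at 5.16, 4.48 and 3.65 CPM in low glucose, and at 9.75, 8.84 and 9.50 CPM in control. Its low glucose and BHB libraries all lay below the control libraries, and the log2 fold change was -1.24 with BHB (SE 0.258, edgeR adjusted p = 0.0358) and -1.08 in low glucose (SE 0.257, edgeR adjusted p = 0.0571). The call with BHB was lost without any 1 of the control replicates, without low glucose replicate 2 or without BHB replicate 1 or 3 (edgeR adjusted p up to 0.164). The scaffold genes NF2 and WWC1 did not pass, and NF2 averaged 290 ± 15.9 CPM with BHB, 266 ± 28.4 CPM in low glucose and 240 ± 10.3 CPM in control.

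Of 16 other genes that restrain the coactivators, 1 fell in each comparison with control. Over all tested genes, 1.38% were lower with BHB and 2.02% were lower in low glucose. The median log2 fold change of the 16 was -0.014 with BHB and -0.086 in low glucose. The gene that fell in both was DCHS1, which encodes a protocadherin that binds FAT4. It stood at 1.2, 6.14 and 6.49 CPM with BHB, at 4.73, 4.41 and 5.63 CPM in low glucose, and at 21.1, 21.1 and 28.3 CPM in control, with no overlap. On the log2 scale DCHS1 changed by -2.35 with BHB (SE 0.454, edgeR adjusted p = 0.0233) and by -2.26 in low glucose (SE 0.452, edgeR adjusted p = 0.0213). The call with BHB was lost without any 1 of the control replicates or without BHB replicate 3 (edgeR adjusted p up to 0.109). The call in low glucose was lost without control replicate 1 or 3 or without any 1 of the low glucose replicates (edgeR adjusted p up to 0.110). Of 17 genes that restrain the kinases, among them the LIM protein gene AJUBA and members of the STRIPAK phosphatase complex, 0 passed in either comparison, and 0 had an unadjusted p under 0.05. Of 15 tested genes of apical polarity, 0 passed in edgeR and 1 had an unadjusted p under 0.05 in each comparison with control. CRB3, a polarity protein gene, averaged 101 ± 10.9 CPM with BHB, 92.3 ± 9.13 CPM in low glucose and 76.1 ± 5.59 CPM in control (edgeR adjusted p = 0.237 with BHB and 0.635 in low glucose).

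Of 10 tested genes for the remaining TEAD factor and for cofactors, RUNX2 fell in both comparisons and RUNX1 in low glucose. RUNX2, a transcription factor gene known from bone, stood at 0.377, 1.26 and 1.11 CPM with BHB, at 0.473, 0.408 and 0.390 CPM in low glucose, and at 7.61, 3.48 and 7.79 CPM in control. The groups did not overlap with control, and its log2 fold change was -2.78 (SE 0.469, edgeR adjusted p = 0.0122) with BHB and -3.89 (SE 0.498, edgeR adjusted p = 0.00178) in low glucose. RUNX1, known from blood formation, changed on the log2 scale by -0.96 in low glucose (SE 0.205, edgeR adjusted p = 0.0299) and by -0.82 with BHB (edgeR adjusted p = 0.0940). The call of RUNX1 was lost without any 1 of the control replicates, without low glucose replicate 1 or 3, or without BHB replicate 3 (edgeR adjusted p up to 0.180). RUNX2 lost its call with BHB when control replicate 1, control replicate 3 or replicate 3 with BHB was left out (edgeR adjusted p = 0.0516, 0.0667 and 0.0517). TEAD2 did not pass, at 40.9 ± 12.4 CPM with BHB, 37.0 ± 2.45 CPM in low glucose and 36.0 ± 2.87 CPM in control.

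Among further genes that serve as readouts of YAP and TEAD in human cell lines, CCDC80, AXL and THBS1 fell in both low glucose media. Of 25 tested, 3 fell with BHB and 4 in low glucose, beside 1.38% and 2.02% of all tested genes lower. The log2 fold change was below 0 for 19 of 25 in each comparison, with a median of -0.141 with BHB and -0.255 in low glucose. Of all 16469 tested genes, 7981 lay below 0 with BHB and 7704 in low glucose, with medians of 0.010 and 0.018. AMOTL2, PTPN14 and AJUBA are counted both here and in the lists of restraining genes above. Without adjustment, 8 of 25 had an edgeR p under 0.05 with BHB and 10 of 25 in low glucose, beside 7.32% and 7.33% of all tested genes. CCDC80, a matrix protein gene, stood at 6.96, 12.3 and 5.07 CPM with BHB, at 10.3, 7.49 and 2.46 CPM in low glucose, and at 73.1, 48.8 and 62.0 CPM in control. AXL, a receptor tyrosine kinase gene, stood at 2.69, 6.90 and 5.33 CPM with BHB, at 6.15, 3.84 and 3.85 CPM in low glucose, and at 28.7, 18.0 and 31.2 CPM in control. Neither gene overlapped with control. The log2 fold change of CCDC80 was -2.91 (SE 0.445, edgeR adjusted p = 0.00677) with BHB and -3.18 (SE 0.450, edgeR adjusted p = 0.00296) in low glucose. That of AXL was -2.38 (SE 0.342, edgeR adjusted p = 0.00536) with BHB and -2.49 (SE 0.344, edgeR adjusted p = 0.00258) in low glucose.

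THBS1, the gene of the matrix protein thrombospondin, fell as well, to 25.6, 24.0 and 10.7 CPM with BHB and 41.3, 11.5 and 23.8 CPM in low glucose, against 149, 148 and 92.9 CPM in control (edgeR adjusted p = 0.00794 with BHB and 0.0105 in low glucose). It lost its call in low glucose without low glucose replicate 3 (edgeR adjusted p = 0.0568). ARHGEF17 fell in low glucose, to 5.64 ± 1.18 CPM against 17.7 ± 6.47 CPM in control (edgeR adjusted p = 0.0181), and averaged 9.39 ± 3.28 CPM with BHB (edgeR adjusted p = 0.360). That call was lost without control replicate 1 or 3 or low glucose replicate 2 or 3 (edgeR adjusted p up to 0.0898). With both low glucose media together, FJX1 changed by -1.84 on the log2 scale (edgeR adjusted p = 0.0215), and 6 of 25 passed in all, where 2.87% of all tested genes were called. FJX1 lost that call without control replicate 2 or 3, low glucose replicate 2 or BHB replicate 3 (edgeR adjusted p up to 0.119). Most readouts did not pass in any comparison, among them AMOTL2 at 103 ± 16.4 CPM with BHB, 90.5 ± 14.6 CPM in low glucose and 104 ± 18.9 CPM in control, and MYOF at 226 CPM with BHB, 222 CPM in low glucose and 231 CPM in control. Of the other CCN genes, CCN3 and CCN6 could be tested, and 0 of these 2 passed or had an unadjusted p under 0.05 in either comparison with control in edgeR.

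**Figure D5:**
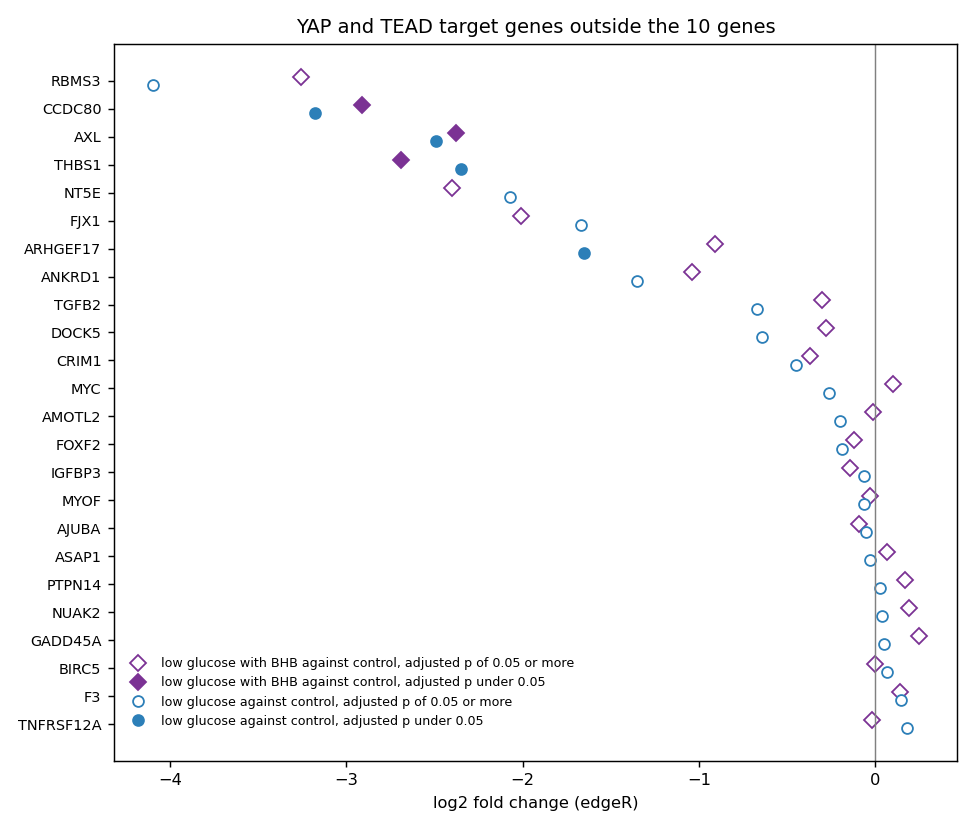
Log2 fold change (x axis) of 24 of the 25 tested YAP and TEAD target genes outside the 10 (y axis), with BHB against control (diamonds) and in low glucose against control (circles), both with the control libraries shared. Filled symbols mark an edgeR adjusted p under 0.05: CCDC80, AXL and THBS1 in both comparisons and ARHGEF17 in low glucose.

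Markers of fibroblast and stromal cells were lower in the same libraries. Summed over all 10 of that list, they ran from 361 to 589 CPM with BHB and 417 to 595 CPM in low glucose. In control the sum ran from 728 to 1380 CPM. Replicate 1 had the highest sum of each medium, as it had the highest level of CCN1 and CCN2. Of these 10 markers, 4 fell with BHB and 3 in low glucose, beside 1.38% and 2.02% of all tested genes lower. The median log2 fold change was -1.449 with BHB and -1.489 in low glucose, and no marker was at 0 counts. The log2 fold change was below 0 for 10 with BHB and 9 in low glucose. The exception was PDGFRA, at 157 CPM in low glucose against 144 CPM in control. Markers of cumulus and granulosa cells summed to 572 to 1070 CPM with BHB, 503 to 1200 CPM in low glucose and 787 to 926 CPM in control, and INHA was at 0 counts in the low glucose libraries. Of these 17 markers, 4 fell in each comparison with control (VCAN, LUM, DCN and NR5A2), beside the same 1.38% and 2.02% of all tested genes. The log2 fold change was below 0 for 14 with BHB and 15 in low glucose, with a median of -0.941 and -1.094. PTGS2, an enzyme gene of prostaglandin synthesis, made up most of the sums of the low glucose media, at 666 ± 237 CPM with BHB, 694 ± 300 CPM in low glucose and 451 ± 94.6 CPM in control (SD, n = 3 each). Without PTGS2, the other 16 summed to 108 to 137 CPM with BHB, 89.4 to 184 CPM in low glucose and 333 to 458 CPM in control. This sum was chosen after the values were seen. The largest of the 16 in control were LUM and VCAN, at 139 and 74.9 CPM, both among those that fell. FSHR averaged 3.60 CPM with BHB, 4.85 CPM in low glucose and 4.18 CPM in control. CYP19A1 averaged 22.4, 19.5 and 21.2 CPM in that order, and neither gene passed. Of the blood cell markers, CD34 was at 0 in both low glucose media, PTPRC was under 10 counts in every library, and the summed level of the 2 tested was 43.7 to 71.1 CPM with BHB, 42.2 to 71.6 CPM in low glucose and 54.2 to 66.0 CPM in control. Whether these markers came from cells of these types or from the embryo itself was not tested. The part of any such cells in the falls of CCDC80, AXL, THBS1, ARHGEF17, FJX1, RUNX1, RUNX2, DCHS1, STK38L and GATA4 was not tested. Nor was their part in the levels of CCN1 and CCN2.

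The trophectoderm genes that YAP1 and TEAD4 turn on in the mouse did not pass. CDX2 stood at 139, 187 and 135 CPM with BHB, at 127, 169 and 166 CPM in low glucose, and at 88.6, 145 and 162 CPM in control. GATA3 stood at 109, 121 and 117 CPM with BHB, at 136, 122 and 136 CPM in low glucose, and at 82.0, 116 and 117 CPM in control. For both genes control replicate 1 was the lowest of the 9 libraries, as it was for YAP1, TEAD3 and LATS2. Of 12 tested lineage transcription factor genes, GATA4, a hypoblast gene, was the only gene that passed: it fell to 19.1 ± 6.64 CPM with BHB and 15.2 ± 3.70 CPM in low glucose, against 41.7 ± 6.39 CPM in control (SD, n = 3 each; edgeR adjusted p = 0.0432 with BHB and 0.00802 in low glucose). GATA6 and SOX17, also hypoblast genes, did not pass and had log2 values above 0, for GATA6 0.29 with BHB and 0.17 in low glucose, and for SOX17 0.74 with BHB and 0.25 in low glucose. The call of GATA4 with BHB was lost without any 1 of the control replicates, without low glucose replicate 3, or without BHB replicate 1 or 3 (edgeR adjusted p up to 0.219). Those that did not pass were CDX2, GATA3, GATA2, TFAP2C, KLF5, EOMES, ELF5, NANOG, POU5F1, GATA6 and SOX17. POU5F1, the pluripotency factor gene also known as OCT4, averaged 1060 CPM with BHB, 1000 CPM in low glucose and 954 CPM in control.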

How the data were processed

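The values are estimated counts for each gene in 9 libraries, as deposited, which the authors made from poly(A)-selected RNA. The tools named, per the submitters' processing notes, are fastp, kallisto and DESeq2, with the build bosTau9, without versions or settings. Of all values, 18.9% were not whole (tolerance 0.001), so the estimated counts, as deposited, were rounded. Of 22127 genes, 16469 passed filterByExpr.

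All 9 libraries were fitted together with edgeR 4.0.16 (R 4.3.3; TMM scaling, quasi-likelihood test) by medium, with Benjamini-Hochberg adjustment over all tested genes and a threshold of 0.05; the steps were tested on simulated data. DESeq2 1.42.0, limma-voom (limma 3.58.1), other scalings and filters, and fits without each library were alternatives. Named genes were the 10 members, every listed gene past the threshold, and the genes of smallest p and highest level in each list, of which only some are described. The values of 1 listed target gene are not reported here, though the counts over its list include it. The members and lists were chosen with earlier results of these data known.

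The labels number the replicates in each medium. Deviations of same-numbered libraries correlated at 0.115, 0.243 and 0.102 between the 2 low glucose media, so the numbers were taken to pair these libraries, from the data alone. A replicate block there also called 0 genes. The table pairs identifiers with symbols, and no sequences or coordinates are given.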

Additional observations from a re-analysis of the deposited data

How the results depend on the processing

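Of 630 values of the 10 genes under the alternatives, 577 kept their direction and their side of the threshold and 50 changed sign. Against control, same-numbered libraries were not taken as pairs. Their deviations correlated at 0.131, 0.0491 and 0.0417 for low glucose and at 0.144, 0.0626 and 0.0458 with BHB. For replicate 1 both values lay above the 0.115 between the low glucose media. Over all pairs of media, 13 of 18 libraries correlated best with their own number. What same-numbered libraries share is not stated, and the test of replicate number as a term is given under other observations. With the replicate number as a block, 1 of the 10 genes passed in each comparison with control: CCN2, at -0.59 in low glucose (edgeR adjusted p = 0.0114), -0.53 with BHB (0.0273) and -0.56 for both media together (0.00392). Genes called under the block numbered 405 (2.46%) in low glucose, 278 (1.69%) with BHB and 551 (3.35%) for both media. DESeq2 called 581 genes in low glucose, 441 with BHB, and 2 with BHB against low glucose, beside 334, 228 and 0 in edgeR. Fits without a library called 196 to 391 in low glucose, 91 to 257 with BHB and 294 to 476 for both media, against 473 with all libraries. The cause of these shifts was not tested.

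Of the 25 further YAP and TEAD targets, 6 passed with BHB in limma-voom and 5 under the block. Without a library, 2 to 7 passed in low glucose, 3 to 5 with BHB and 3 to 8 for both media. The sign of small log2 differences turned. CCN1 between the low glucose media was 0.07 in limma-voom and 0.04 under the block. Without a library, CCN1 ran from -0.67 to 0.30 in low glucose, -0.45 to 0.23 with BHB, -0.36 to 0.26 for both media, and -0.44 to 0.62 with BHB against low glucose. LATS1 ran from -0.06 to 0.11 in low glucose, -0.20 to 0.19 with BHB, and -0.21 to 0.18 with BHB against low glucose. YAP1 ran from -0.03 to 0.24, -0.04 to 0.29 and -0.13 to 0.17 in these 3 comparisons, and TEAD3 from -0.09 to 0.12, -0.02 to 0.19 and -0.05 to 0.16, with -0.06 to 0.15 for both media. WWTR1 ran from -0.19 to 0.01 in low glucose and -0.18 to 0.05 between the low glucose media. TEAD1 ran from -0.07 to 0.13 with BHB and -0.07 to 0.04 for both media, and TEAD4 from -0.01 to 0.15 with BHB, and -0.09 to 0.07 with BHB against low glucose. Between the low glucose media, AMOT ran from -0.01 to 0.35 and CCN2 from -0.23 to 0.28.

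The test of replicate number described under other observations called 1 of the 10 genes in edgeR, 2 in DESeq2, 2 in limma-voom and 0 to 2 without a library. The lowest count of the 10 genes, 670, had an exact 95% Poisson interval of 620 to 723, which covers counting error only.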

Other observations

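CCN2 kept a single order of replicate numbers in all 3 media, and CCN1 shared only its highest library, replicate 1, so the number was tested as a term in the blocked fit, a test chosen after these values were seen. CCN2 passed (edgeR adjusted p = 0.0175), with log2 values of -1.07 for replicate 2 and -0.20 for replicate 3, each against replicate 1. It lost this call without control replicate 1, low glucose replicate 2 or BHB replicate 2, with the adjusted p between 0.00753 and 0.0923 over the fits without a library. CCN1 did not pass (edgeR adjusted p = 0.0875), at -1.05 for replicate 2 and -1.10 for replicate 3. YAP1 did not pass either (edgeR adjusted p = 0.396), at 0.41 for replicate 2 and 0.29 for replicate 3. Over all 16469 genes, 21 passed (0.128%) and 11.3% had an unadjusted p under 0.05. The count of genes was 487 in DESeq2, 39 in limma-voom and 2 to 57 without a library. The labels do not say what a replicate number stands for.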
